A study of Homo sapiens with 2 samples.

Results

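Guides against human microRNAs with high registry numbers (hsa-mir-1000 and above) were followed through a pooled knockout screen. MicroRNAs are numbered in the order of their discovery, so these are mostly the ones found late, by deep sequencing. Members were the rows of the count table whose target begins with hsa-mir- and carries a number of at least 1000, with hsa-mir-1283 and hsa-mir-1323 left out. This gave 4790 of 123411 guide rows (3.88%), with numbers up to 8089. The targets were 1158 microRNAs with 4 guides, 34 with 3, 21 with 2 and 14 with 1. All members belonged to sub-library A of the pool.

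The screen was run in SK-OV-3, an established human ovarian cancer cell line. The cells carried a reporter of transcriptional readthrough (TRT) in which mCherry lay ahead of, and EGFP behind, the stretch that joins COMMD3 to its downstream neighbour BMI1. GeCKO v2.0, a lentiviral pool of Cas9 guides, was introduced at a multiplicity of infection near 0.3, and transduced cells were kept with puromycin at 2 µg/mL. Guide cassettes were amplified from genomic DNA of the unsorted cells and of the TRT-negative cells, which had been sorted as mCherry+ EGFP-, with 1 library of each. Both populations carried the reporter and the guide pool. The title of the control names both fluorescent proteins and could also describe a double-positive sort, and it was read as unsorted from the design text. With 1 library per condition no difference was tested, and a change in a guide's reads between the libraries has no replicate check. Reads totalled 12882989 in unsorted cells and 12444427 in TRT-negative cells. Intervals in parentheses are exact Clopper-Pearson 95% intervals for shares and exact conditional 95% intervals for folds. Intervals for shares treat guide rows as independent draws, and those for folds cover counting error of reads only. Neither covers variation between libraries, and PCR reads are not independent molecules.

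MicroRNAs are cut from hairpin transcripts by Drosha and Dicer, and the mature strand guides Argonaute to target mRNAs chiefly through its seed. Many of the high-numbered entries lie in introns of protein-coding genes, some come straight from short spliced introns as mirtrons, and others sit in repeats or ribosomal DNA. A guide to such a hairpin also cuts the host gene's DNA at that place, and a guide whose target occurs at several loci can cut at each of them.

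The mature microRNAs behind the most extreme guides are shown first, from RefSeq, written from 5′ to 3′ with the seed (bases 2 to 8) in capitals. Where a hairpin has sequences for both strands, a single strand is shown. The guides' own sequences were not used here. A RefSeq hairpin on GRCh38.p14 was matched to 993 of the microRNAs (80.9%), and the others are given by name. The first set is of microRNAs with a guide that had no unsorted read and many TRT-negative reads.
hsa-miR-3128: uCUGGCAAguaaaaaacucucau
hsa-miR-6732-5p: uAGGGGGUggcaggcuggcc
hsa-miR-6780b-5p: uGGGGAAGgcuuggcagggaaga
hsa-miR-4700-5p: uCUGGGGAugaggacagugugu
hsa-miR-4506: aAAUGGGUggucugaggcaa

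The second set is of microRNAs whose well-read guides had the highest ratios, with hsa-miR-4474-5p added for the largest gain in reads. The hsa-mir-3914 copies also ranked there but are left out, since no mature sequence was found for them. hsa-miR-6715a-3p and hsa-miR-6715b-5p are read from opposite strands of 1 place and are complementary over 19 bases.
hsa-miR-6818-5p: uUGUGUGAguacagagagcauc
hsa-miR-4645-5p: aCCAGGCAagaaauauugu
hsa-miR-6715a-3p: cCAAACCAgucgugccugugg
hsa-miR-6715b-5p: aCAGGCACgacugguuuggca
hsa-miR-4474-5p: uUAGUCUCaugaucagacaca

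The third set is of microRNAs with a well-read guide whose share fell most. The lowest ratio of all was that of hsa-mir-1285-2, which is left out since no mature sequence was found for it.
hsa-miR-6859-5p: gAGAGGAAcaugggcucaggaca
hsa-miR-3136-5p: cUGACUGAauagguagggucauu
hsa-miR-4745-5p: uGAGUGGGgcucccgggacggcg

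The last set is of microRNAs with 2 guides above the enrichment threshold, and of 1 that lies inside ERBB2.
hsa-miR-2115-5p: aGCUUCCAugacuccugaugga
hsa-miR-4315: cCGCUUUCugagcuggac
hsa-miR-4674: cUGGGCUCgggacgcgcggcu
hsa-miR-3180-5p: cUUCCAGAcgcuccgccccacgucg
hsa-miR-4728-5p: uGGGAGGGgagaggcagcaagca

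Seeds were compared over 67 mature sequences, among which there were 66 different seeds. These sequences do not cover every microRNA named in the text, and the hsa-mir-3689 family enters through hsa-miR-3689e alone. Among the sequences compared, the shared seed belonged to hsa-miR-1260a and hsa-miR-1260b, whose guides are described with the tumour-related microRNAs.
hsa-miR-1260a: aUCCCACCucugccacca
hsa-miR-1260b: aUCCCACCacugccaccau

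Most of these guides were not seen at all. No read was found for 3744 of the 4790 guides (78.2%) in either library, against 76.7% over all guide rows. The members held 365690 unsorted reads (2.84% of the library) and 352285 TRT-negative reads (2.83%), so their share of reads was nearly equal in both. A read was found for 423 guides in the unsorted library (8.83%, interval 8.04 to 9.67) and for 1014 in the TRT-negative library (21.2%, interval 20 to 22.4). The 391 guides read in both made up 92.4% of those read before sorting. A detected guide had a median of 668 unsorted reads but only 56 TRT-negative reads.

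Guides against the other microRNAs, which include hsa-mir-1283 and hsa-mir-1323, were detected about as often. Of their 2498 guides, 9.45% had an unsorted read (interval 8.33 to 10.7) and 22.0% a TRT-negative read (interval 20.4 to 23.7). Guides to protein-coding genes in the same sub-library were read in 9.89% (interval 9.65 to 10.1) and 22.9% (interval 22.5 to 23.2). Both shares of the members lay slightly under these, and in both libraries the members' interval ended below the protein-coding share. The intervals treat identical rows as separate guides, and the difference was not tested. The 1000 non-targeting guides, each listed in both sub-libraries and counted here as 1, stood higher, with 17.7% and 35.6%.

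In the unsorted library 884 of the microRNAs had no guide with a read, 267 had 1, 72 had 2 and 4 had 3. After sorting 516 had none, 461 had 1, 202 had 2, 43 had 3 and 5 had 4. Most of these microRNAs were thus seen through 1 guide or through none.

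Reads appeared only after sorting for 623 guides (13.0%, interval 12.1 to 14.0), against 12.8% of all guide rows. Their TRT-negative reads had a median of 33 and a highest value of 741, and they took 8.29% of the members' TRT-negative reads. The opposite case was rarer, with 32 guides read in the unsorted library alone, at a median of 3 and at most 43 reads.

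A guide was called enriched when log2((TRT-negative + 1)/(unsorted + 1)) of the normalized counts exceeded 5.93, the 95th percentile among non-targeting guides. Enriched members numbered 144 (3.01%, interval 2.54 to 3.53) in 137 microRNAs, where the share over all guide rows was 2.90%. Other microRNA guides reached 2.52% (interval 1.94 to 3.22), protein-coding guides of sub-library A 2.90% (interval 2.77 to 3.04), and non-targeting guides 5% by the way the threshold was set. The members' share was thus near the background. All 144 had no unsorted read, so a guide without unsorted reads was called once it had 60 TRT-negative reads.

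The guides with most reads among those absent before sorting mostly stood alone in their microRNA. The guide to hsa-mir-3128, whose hairpin at chr2:177255945-177256010 lies in an intron of NFE2L2 (the transcription factor of the antioxidant response), went from 0 to 741 reads. The other 3 guides to hsa-mir-3128 had no read in either library. A floor of 3 unsorted reads makes this at least 256-fold higher, a bound on read sampling only.

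The guide to hsa-mir-6732 went from 0 to 702 reads, at least 243-fold. This hairpin, at chr1:37480230-37480289, lies in an intron of ZC3H12A, which encodes the RNase Regnase-1, and its 3 other guides were unread. The guide to hsa-mir-6780b went from 0 to 695 reads, at least 241-fold, beside another guide at 0 and 14 reads. That hairpin, at chr6:43434542-43434620, lies in an intron of the transporter gene ABCC10.

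The guide to hsa-mir-4700 went from 0 to 524 reads, at least 181-fold. Its hairpin, at chr12:120723193-120723266, lies in an exon of UNC119B. The guide to hsa-mir-4506, in an intron of ASB2 at chr14:93948226-93948302, went from 0 to 304 reads, at least 105-fold. No other guide to either microRNA was read.

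The next 5 guides in this order lay close together. They were those to hsa-mir-4524b (0 to 284 reads, at least 98.3-fold), hsa-mir-3152 (0 to 283, at least 97.9-fold), hsa-mir-1207 (0 to 252, at least 87.2-fold), hsa-mir-6796 (0 to 203, at least 70.2-fold) and hsa-mir-4723 (0 to 201, at least 69.6-fold). hsa-mir-4524b lies in an intron of ABCA6 on the opposite strand, hsa-mir-3152 in one of ADAMTSL1, hsa-mir-6796 in one of PLD3 and hsa-mir-4723 in one of TMEM199. Guides to hsa-mir-6796 went opposite ways: a second guide had 1537 unsorted and 240 TRT-negative reads.

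A microRNA with several enriched guides was rare. Counting rows of identical reads as 1 guide, 131 microRNAs had 1 enriched guide, 6 had 2 and none had 3. The 6 were 0.489% of the members, and 3 of 637 other microRNAs (0.471%) had 2. They came from 4 sets of counts. The enriched rows of hsa-mir-4315-1 and hsa-mir-4315-2 had identical counts, as did those of hsa-mir-3180-1 and hsa-mir-3180-2.

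hsa-mir-2115, in an intron of SPINK8 at chr3:48316360-48316459, had guides at 154, 87, 1 and 0 TRT-negative reads, all without an unsorted read. hsa-mir-4674, outside protein-coding genes at chr9:136546173-136546259, had 140, 73, 30 and 0. These are the 2 cases in which the enriched guides belonged to 1 locus alone.

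hsa-mir-4315-1 and hsa-mir-4315-2 lie far apart on chromosome 17, at chr17:45475363-45475435 in an exon of PLEKHM1 and at chr17:64822030-64822102 outside protein-coding genes. Both were listed with guides at 112, 111 and 37 TRT-negative reads. hsa-mir-3180-1 and hsa-mir-3180-2, on chromosome 16, were both listed with guides at 120 and 72. None of these guides had an unsorted read.

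Changes could be read in both libraries for the 344 member guides with at least 100 unsorted reads, called well-read here. Counting identical rows as 1, they were 303 guides. Their reads had a median of 830.5 before and 499 after sorting. Over all 10717 well-read targeting guides the median log2 ratio was -0.65 (0.64-fold, SD 1.33), and each ratio was centred on it.

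The centred log2 ratio of the members had a median of -0.12 (SD 1.31), with quartiles of -0.76 and 0.84. The same median was 0.13 for 203 other microRNA guides, -0.05 for 4695 protein-coding guides of sub-library A and -0.34 for 151 non-targeting guides. No difference between these medians was tested. The sign depends on the centre, since the members' median was 0.23 when centred on the non-targeting guides.

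At 4-fold or more from the centre, 25 member guides rose (7.27%, interval 4.76 to 10.5), against 9.30% of all well-read targeting guides. There were 16 that fell (4.65%, interval 2.68 to 7.44), against 3.90%. Without centring, the counts were 13 risen and 37 fallen, so the balance depends on the centre. Both centred shares had the background within their interval. Other microRNA guides rose in 23 of 203 (11.3%, interval 7.32 to 16.5) and fell in 12 (5.91%, interval 3.09 to 10.1). Counting identical rows as 1, the members' counts were 23 risen and 14 fallen.

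The highest ratio belonged to a guide to hsa-mir-6818, which had 436 unsorted and 2052 TRT-negative reads. This was 4.89-fold in normalized counts (interval 4.40 to 5.43), or 2.93 on the centred log2 scale. Its hairpin, at chr22:30007049-30007113, lies in an intron of MTMR3, a phosphoinositide phosphatase gene, and the other 3 guides were unread.

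hsa-mir-3914-1 and hsa-mir-3914-2 shared a guide at 560 and 2611 reads (4.84-fold, interval 4.42 to 5.31, centred log2 2.92). A guide to hsa-mir-4645, outside protein-coding genes at chr6:2854031-2854107, went from 618 to 2834 reads (4.76-fold, interval 4.36 to 5.20, centred log2 2.90). A second hsa-mir-4645 guide had only 2 and 1 reads.

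hsa-mir-6715a and hsa-mir-6715b gave the only case among the leading risen guides in which a second well-read guide also lay above the centre. Their hairpins cover each other on opposite strands at chr10:112299612-112299690 and chr10:112299612-112299688, in an intron of TECTB, and the table lists the same guide reads under both names. The first shared guide went from 1384 to 6258 reads (4.69-fold, interval 4.43 to 4.98, centred log2 2.88). The second went from 1357 to 2143 reads (centred log2 1.36). The other 2 guides were unread.

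In absolute reads the largest gain was that of hsa-mir-4474, a microRNA in an intron of MLLT3 at chr9:20502265-20502342. Its guide had 4812 unsorted and 15632 TRT-negative reads, moving from rank 161 to rank 5 over all guide rows. This was 3.37-fold (interval 3.27 to 3.48), or 2.40 on the centred log2 scale. Without any unsorted read, the other hsa-mir-4474 guides had 37, 1 and 0 reads after sorting.

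The lowest ratio was that of hsa-mir-1285-2, whose guide had 377 unsorted reads and 1 TRT-negative read. This was 0.00275-fold (interval 6.95e-05 to 0.0154), or -6.87 on the centred log2 scale. Its 3 other guides were unread.

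The next lowest guide was listed under hsa-mir-6859-1, hsa-mir-6859-2 and hsa-mir-6859-3, with 168 and 4 reads (0.0247-fold, interval 0.00666 to 0.0645, centred log2 -4.38). These hairpins are copies near the ends of chromosomes 1 and 15, at chr1:17369-17436, chr1:187891-187958 and chr15:101973524-101973591. The median candidate Cas9 site in them, 20 bases ahead of NGG, occurs 9 times in hg38. Other guides to these copies did not follow: 1 shared by hsa-mir-6859-1 and hsa-mir-6859-3 had 429 and 360 reads (centred log2 0.45). Another shared by the 3 copies went from 0 to 68 reads and was enriched. A guide listed for hsa-mir-6859-2 alone had 93 and 367 reads.

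A guide to hsa-mir-3136 fell from 1293 to 109 reads (0.0875-fold, interval 0.0713 to 0.106, centred log2 -2.85). A second guide to the same hairpin, at chr3:69048958-69049035 in an intron of TMF1, went from 509 to 827 reads (centred log2 1.40). The 2 guides of hsa-mir-3136 therefore stood on opposite sides of the centre.

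A guide to hsa-mir-4745 fell from 1371 to 134 reads (0.101-fold, interval 0.0843 to 0.121, centred log2 -2.64). Its hairpin, at chr19:804940-805001, lies in an intron of PTBP1, the gene of a splicing repressor, and no other guide to it was read. Just past the 4-fold limits stood hsa-mir-6773 (2.00) and hsa-mir-5590 (-2.01), and just short of them hsa-mir-1269a (1.77) and hsa-mir-6796 (-1.97).

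The guides with most unsorted reads kept near the centre, apart from that of hsa-mir-4474. hsa-mir-4692 led with 7470 and 5047 reads (centred log2 0.14) and was rank 47 over all rows before sorting. hsa-mir-3689f had 6047 and 3789 reads (0.03), and hsa-mir-4682 had 4971 and 4087 (0.42). hsa-mir-5706, in an intron of DMXL1, had 4491 and 1844 (-0.58). For hsa-mir-4704 a guide at 4337 and 2256 reads (-0.24) stood beside a second guide at 967 and 1600 (1.43).

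Agreement between guides of 1 microRNA was read from pairs. Pairs of well-read guides numbered 36 in 32 microRNAs, when a pair listed under several names is counted as 1. Their ratios differed by a median of 0.93 on the log2 scale (quartiles 0.43 and 1.65). Over all targets the median was 1.19 in 2206 pairs, and over member guides of different microRNAs it was 1.17. Both guides lay on the same side of the centre in 18 of 36 pairs (50%), and in 50.9% of pairs over all targets. Guides of 1 microRNA share a locus and are not replicates.

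The closest pair belonged to hsa-mir-6073, with 662 and 905 reads for one guide, 931 and 1247 for the other, and a difference of 0.03. Both guides to hsa-mir-4274 lay low, with 1698 and 256 reads for one (centred log2 -2.02) and 284 and 52 for the other (-1.73). The furthest pairs were those of hsa-mir-3136 (4.26) and hsa-mir-6859-1 (4.83).

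Well-read guides numbered 3 in 2 microRNAs. hsa-mir-4323, in an intron of POU2F2 at chr19:42133445-42133513, had guides at 2738 and 794 reads (centred log2 -1.08), 305 and 215 (0.20), and 452 and 478 (0.78). hsa-mir-3689e had guides at 171 and 97 reads (-0.11), 782 and 788 (0.71), and 1393 and 2742 (1.68). The guide at 782 reads was also listed for hsa-mir-3689b and the guide at 1393 reads for hsa-mir-3689a.

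Some guides were listed under several names. Neighbouring rows of the table with identical nonzero counts in both libraries were taken as a proxy for 1 guide sequence listed several times. They held 199 member rows (4.15%), against 4.44% of other microRNA guides and 1.81% of protein-coding guides of sub-library A (interval 1.70 to 1.92). Rows without reads cannot be recognised in this way. A match at a low count can arise without a shared sequence, and 81 of the 95 runs of such rows had at least 10 reads.

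The runs were then set against the layout of the hairpins. In 32 runs, from 19 sets of names, the hairpins lay on opposite strands over each other, with 54 to 100 bases in common, as in hsa-mir-6715a and hsa-mir-6715b. In 26 runs the hairpins lay at separate loci, with a median sequence identity of 100%, as in the hsa-mir-1184 copies, whose shared guide had 601 and 652 reads. In 6 runs the names led to 1 RefSeq hairpin, as in hsa-mir-1270-1 and hsa-mir-1270-2, whose shared guide had 2350 and 787 reads. A further 21 runs held a microRNA without a matched hairpin, and 5 lay within 1 microRNA.

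In 5 runs a microRNA row matched a row of a protein-coding gene. The one with most reads paired hsa-mir-3661 with PPP2CA, the catalytic subunit of protein phosphatase 2A, at 43 unsorted reads and 0 TRT-negative reads. The other 4 had no unsorted read and at most 22 TRT-negative reads.

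Counted by rows, guides to microRNAs named as copies of 1 number were read more often than the rest. A guide listed under several names counts once for each name here. Detection was not recounted with identical rows as 1, so these shares do not show more guides read. Their 145 microRNAs had 554 guides, of which 13.7% had an unsorted read (interval 11.0 to 16.9) and 28.3% a TRT-negative read (interval 24.6 to 32.3). Over the other 1082 microRNAs these shares were 8.19% (interval 7.38 to 9.06) and 20.2% (interval 19.0 to 21.5). Enriched guides made up 5.42% (interval 3.68 to 7.64), in 30 rows that held 15 guides when identical rows are counted as 1, against 2.69% (interval 2.22 to 3.22). Their 59 well-read rows held 30 guides with a median centred log2 ratio of -0.46, against -0.07. Guides listed in several rows move together here, and the intervals treat rows as separate.

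Detection was also set against the genome copies of candidate sites in the hairpin, and the order depended on the rows of identical counts. The guides' own target sites were not known. Some cannot be among the candidate sites, as for hsa-mir-5706 with 1 such site and 4 guides. Candidate Cas9 sites in the hairpins of 871 microRNAs had a median of 1 exact copy in hg38, and 7.83% of their guides had an unsorted read (interval 6.95 to 8.78). With 5 or more copies, in 28 microRNAs with 112 guides, the share was 17.9% (interval 11.3 to 26.2) before sorting and 38.4% (interval 29.4 to 48.1) after, against 20.5% for 1 copy. Between these classes, over 1 and under 5 copies gave 13.0% before sorting (interval 9.38 to 17.4). Enriched rows made up 2.97% with 1 copy (interval 2.43 to 3.59), 5.14% with over 1 and under 5 (interval 2.90 to 8.33) and 8.93% with 5 or more (interval 4.36 to 15.8). The last were 10 rows that held 5 guides when identical rows are counted as 1. The 13 well-read rows with 5 or more copies held 7 guides, with none risen and 1 fallen, that of hsa-mir-6859. Without rows of identical counts the order of the unsorted shares turned around, to 7.36% with 1 copy, 5.28% with over 1 and under 5 and 2.70% with 5 or more. This exclusion removes only rows with reads. The part of shared guides in this difference was not tested.

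Detection by the place of the hairpin gave overlapping intervals. Of the 993 matched microRNAs, 712 lay inside protein-coding genes. Guides to the 581 intronic hairpins were read after sorting in 21.3% (interval 19.7 to 23.1), those to 131 exonic hairpins in 17.9% (interval 14.7 to 21.5), and those to 277 outside such genes in 22.5% (interval 20 to 25.1). Among intronic hairpins, enriched guides made up 3.36% on the host gene's strand (interval 2.60 to 4.27) and 3.51% on the opposite strand (interval 1.88 to 5.93).

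By GC content of the hairpin, enriched rows were fewest in the lowest quartile, up to 44.4% GC, at 1.95% (interval 1.16 to 3.07), against 2.90% of all rows. They were most frequent in the quartile between 54.5% and 63.4% GC, at 4.29% (interval 3.11 to 5.75). The other quartiles had 3.50% and 3.33%. The lowest and highest values were picked after all 4 quartiles were seen, and the intervals treat identical rows as separate guides. Unsorted detection stayed between 8.06% and 9.34% over the quartiles, with overlapping intervals.

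Bands of registry numbers were compared next. TRT-negative detection ran from 19.2% of the guides to numbers from 2000 (interval 10.9 to 30.1) to 22.3% of those from 6000 upwards (interval 20.1 to 24.7). Enriched guides ran from 2.24% for numbers from 1000 (interval 1.20 to 3.80) to 4.11% for numbers from 2000 (interval 0.856 to 11.5). All these intervals overlapped.

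Lists of microRNAs by locus or history were then read one by one. ERBB2, the receptor tyrosine kinase gene amplified in SK-OV-3, has hsa-mir-4728 in an intron at chr17:39726495-39726561. Together with 4 neighbours on chromosome 17 it had 20 guides, of which 1 was read before and 7 after sorting (35.0%, interval 15.4 to 59.2). Enriched guides numbered 3 (15.0%, interval 3.21 to 37.9), against 2.90% of all rows.

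In this region hsa-mir-4728 had a guide at 0 and 68 reads, and hsa-mir-4726 one at 0 and 99. hsa-mir-2909, in an intron of AATF, had 60, 38 and 18 TRT-negative reads in 3 guides without unsorted reads. hsa-mir-4734 had 1 TRT-negative read. The guide to hsa-mir-4727 was the one read before sorting, with 1823 and 723 reads (0.412-fold, interval 0.377 to 0.449, centred log2 -0.63). The region's share of enriched guides rests on 3 guides, and its interval began just above the background. Among them, the guide to hsa-mir-2909, at chr17:37033745-37033813, had exactly the 60 reads needed for a call. Whether that locus lies in the amplified segment was not examined. The list was chosen with earlier results of these data known.

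Around PVT1, a noncoding RNA gene, 17 guides to 5 microRNAs gave 2 enriched guides (11.8%, interval 1.46 to 36.4, against 2.90% of all rows). They were those to hsa-mir-1207 (0 and 252 reads) and hsa-mir-1205 (0 and 77 reads). The guide to hsa-mir-1208 had 491 and 310 reads and lay at the centre (centred log2 0.04).

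hsa-mir-3648 and hsa-mir-3687 lie in ribosomal DNA, in the spacer of the precursor of ribosomal RNA. A guide to hsa-mir-3648 rose from 1113 to 4811 reads (4.49-fold, interval 4.20 to 4.79, centred log2 2.81). hsa-mir-3687 had guides at 0 and 50 reads and at 0 and 4 reads. Of the 8 guides to both, none was called enriched (0%, interval 0 to 36.9, against 2.90% of all rows). Every enriched member lacked unsorted reads, which the risen guide to hsa-mir-3648 had, so this share does not describe its rise.

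The first described mirtrons were represented by 13 microRNAs and 52 guides, of which 2 were read before and 11 after sorting. The 2 enriched rows (3.85%, interval 0.469 to 13.2, against 2.90% of all rows) were 1 guide listed for hsa-mir-1233-1 and hsa-mir-1233-2, with 0 and 67 reads. hsa-mir-1238, in an intron of ATG4D, a protease gene of the autophagy pathway, had a guide at 2260 and 2773 reads (1.27-fold, interval 1.20 to 1.35, centred log2 1.00). A second hsa-mir-1238 guide had 13 and 17 reads.

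Whether microRNAs outside this list are mirtrons was not examined. The remaining guides of the list that were read had no unsorted read and fell below the enrichment threshold. After sorting hsa-mir-1231 had guides at 50 and 58 reads, and the hsa-mir-1233 copies shared a further guide at 40. Single guides to hsa-mir-1234, hsa-mir-1226 and hsa-mir-1227 had 45, 20 and 16 reads.

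MicroRNAs overlapping other noncoding RNAs had 25 guides in 7 microRNAs. hsa-mir-1291, which overlaps a small nucleolar RNA, had the only enriched one, at 0 and 93 reads. This was 4% of the list's guides (interval 0.101 to 20.4), near the 2.90% of all rows. hsa-mir-1248 had a guide at 320 and 325 reads (centred log2 0.72).

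MicroRNAs often studied in tumours had 43 guides in 11 microRNAs, with 3 read before sorting and 10 after. None was enriched, and 0 of 43 guides allows a share of up to 6.98% by a limit of 3 counts, or 8.22% by the exact interval. The share over all rows, 2.90%, lies within both limits. The guide to hsa-mir-1275 had 1868 and 363 reads (0.202-fold, interval 0.180 to 0.226, centred log2 -1.66), which is short of the 4-fold limit. hsa-mir-1246 had a guide at 2240 and 1704 reads (centred log2 0.31) and another at 0 and 49. Of the pair with a shared seed, hsa-mir-1260a had a guide at 6 and 39 reads and hsa-mir-1260b one at 0 and 58. Guides to hsa-mir-1271, hsa-mir-1296, hsa-mir-1290 and hsa-mir-1258 had no unsorted read and 53, 48, 39 and 37 TRT-negative reads, and a second hsa-mir-1275 guide had 0 and 20.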

How the data were processed

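Guide cassettes were sequenced in 2 libraries of SK-OV-3 reporter cells, 1 unsorted and 1 sorted as TRT-negative. Members and lists were chosen with earlier results of these data known. Raw counts of reads for each guide row (12882989 and 12444427 in all) were deposited by the authors. Their second deposited table is a normalized signal, the raw counts scaled by 0.9816 in unsorted and 1.019 in TRT-negative cells. The submitters' processing notes name MAGeCK and hg38. How reads were matched, and the version, were not given in the sources used here. Deposited comparison tables hold fold changes, p-values, scores and ranks per guide and target, and were not used.

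Log2 ratios used a pseudocount of 1. Enriched guides exceeded the 95th percentile over 1000 non-targeting guides (rows of 1 guide merged). Well-read guides had at least 100 unsorted reads, and were called risen or fallen at 4-fold after centring. Shares carry exact Clopper-Pearson 95% intervals, and folds over 0 used a floor of 3 reads. Hairpins came from RefSeq (GRCh38.p14), host genes from GENCODE 44 on hg38, and candidate sites (20 bases before NGG) were counted as exact copies on the primary chromosomes of hg38 on both strands. The call of risen guides and the fold intervals were tested on simulated counts with counting error only. The count of site copies was tested on a planted sequence. Enriched and fallen calls were not part of these tests. Alternatives covered detection minima, scaling, pseudocounts, percentile, read minima, centring and rows with identical counts.

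The text names the 10 guides read only after sorting with most TRT-negative reads, the 6 highest and 6 lowest well-read guides, the 6 with most unsorted reads, microRNAs with at least 2 distinct enriched or 3 well-read guides, and list members with reads (the list of several loci is given by its counts). Guides at the 4-fold limits, the closest and furthest pairs, hsa-mir-4274 and examples of identical rows were chosen after their values were seen. Python 3.11.15, numpy 2.4.6, pandas 2.3.3, scipy 1.17.1 and edlib 1.3.9.post1 were used.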

Additional observations from a re-analysis of the deposited data

How the results depend on the processing

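With 1 library per condition, depth and sampling of cells limit every value, and no paired analysis was possible because the labels give 1 library per condition and no test was run. Over 22 results, 31 alternative values were labelled as close and 23 as moved. Those labelled as close include the members' median log2 ratio of -0.77 without centring, against -0.12 as reported. They also include its value of 0.23 when centred on non-targeting guides, where the sign changed. Leaving out identical rows turned the order of unsorted detection by genome copies, and dropping the centring turned the balance of risen and fallen guides. Requiring 5 reads gave detection of 8.04% before and 19.5% after sorting, and leaving out rows with identical counts gave 7.17% and 18.0%, the latter by construction since only read rows can be recognised. Guides read only after sorting made up 7.06% with at least 30 reads and 11.3% without identical rows. Enriched guides made up 0.418% at the 99th percentile and 2.40% without identical rows. With at least 30 unsorted reads they made up 7.00% (25 of 357 guides). None of these 25 was shared with the 144, since all of those had no unsorted read. The 25 did not pass the main threshold, so a lower one applied to them. No share over all guide rows is given under these settings. These shares therefore have no background here and show neither an excess nor a deficit of members. Under total-count scaling 140 were called, all among the 144. Risen guides numbered 13 without centring and 74 at 2-fold, with 25 as reported. Fallen guides numbered 37 without centring, 59 at 2-fold, 10 with at least 300 unsorted reads and 9 when centred on non-targeting guides, with 16 as reported. No microRNA had 2 enriched guides at the 99th percentile (0, with 6 as reported). Without identical rows, TRT-negative detection was 17.3% for numbers from 1000, 14.8% from 3000, 19.4% from 6000, 18.9% for intronic hairpins and 17.7% outside protein-coding genes, and unsorted detection was 2.70% with 5 or more genome copies, 5.28% with over 1 and under 5 and 7.36% with 1. Counting identical rows as 1 was chosen after seeing the data, as was their exclusion by genome copies, and gave 126 enriched, 23 risen and 14 fallen guides. Beyond these constructions the cause of each move was not tested.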
